A study of Homo sapiens with 2 samples.

Results

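The genes described here are the class II bHLH partners of E proteins, 36 tissue-restricted transcription factor genes out of 19862 protein-coding gene records. They were chosen by name from this family, and all 36 were found in the RefSeq gene table. Peaks were assigned to them by the peak summit, the base of highest signal. A summit was counted inside a gene record, at an end (within 1 kb of either end of the record), or within 50 kb of the record. The peaks come from spheres of CAL-27, a cell line founded from a squamous carcinoma of the human tongue. Growth as floating spheres favours tumour cells with stem-like features. The study prepared 1 library with a TCF4 antibody and 1 with an IgG antibody as the control. The labels give no other treatment or genetic change for either group. In the TCF4 library, 26642 peaks were listed on hg38, and IgG data were not used here. Peaks that would also be found with IgG were therefore not set apart here, and whether the authors called peaks against IgG is not stated. With 1 library per antibody no value has a replicate check and no test between groups was possible.

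Class II bHLH proteins carry a basic region that contacts DNA and a helix-loop-helix that pairs with another such protein. Most bind DNA as heterodimers with a class I E protein, TCF3, TCF4 or TCF12, at the E-box, CANNTG, where N is any base. ID proteins lack the basic region and hold E proteins away from these partners. Different tissues use different partners: proneural factors in nerve cells, MYOD1 and its relatives in muscle, TAL1 and LYL1 in blood. The name TCF4 is used both for the E protein and for TCF7L2, a partner of beta-catenin that is not a bHLH protein, and the target of the antibody is not specified further in the labels.

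A summit lay at an end of 8 of the 36 genes (22.2%), where the background over all protein-coding genes was 41.5%. These were ASCL2, NEUROD2, NEUROD6, OLIG2, MESP2, BHLHA15, FERD3L and FIGLA. A summit lay inside 7 genes (19.4%, background 39.0%), and ATOH8 was the only such gene without a summit at an end. With either position counted, 9 genes (25%, background 54.9%) had a peak. Within 50 kb, 21 genes (58.3%, background 77.6%) had at least 1 summit, and the other 15 had none. All 4 shares were below those of all protein-coding genes.

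Class II genes are short and often stand apart from other genes, and these features moved with the share of genes that had a summit. Their median record length was 3.07 kb, against 24.5 kb over all protein-coding genes. A median of 3.5 ends of other protein-coding genes lay within 100 kb of them, against 6 for all. Among records of up to 5 kb, 7 of 26 class II genes had a summit at an end (26.9%), close to the 30.0% of all 3114 such records. Of the 9 class II genes with records of 5 to 20 kb, 1 had a summit at an end (11.1%), against 41.2% of all such records, and ATOH8, the 1 gene over 20 kb, had none there, against 44.9%. At the authors' threshold the share at ends was thus near the background for short records and below it for the 10 longer ones. Among short records with at most 4 neighbouring ends, the count was 3 of 18 (16.7%), against 21.1% of all 783. With 5 to 9 neighbouring ends it was 2 of 5 (40%), against 23.3%, and with more it was 2 of 3 (66.7%), against 36.6%, both above the background on few genes. At a −log10 q of at least 5 it was 2 of 26 among short records, against 19.7%, and 2 of 18 with at most 4 neighbouring ends, against 12.1%. Within 50 kb, the short class II genes stood at 53.8% and all short genes at 67.2%, and with at most 4 neighbouring ends at 38.9% and 51.3%. With 5 to 9 neighbouring ends it was 4 of 5 (80%), against 61.6%, and with more 3 of 3 (100%), against 76.7%. Both were above the background on few genes. The part of length and neighbours in these shares was not tested further.

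**Figure D1:**
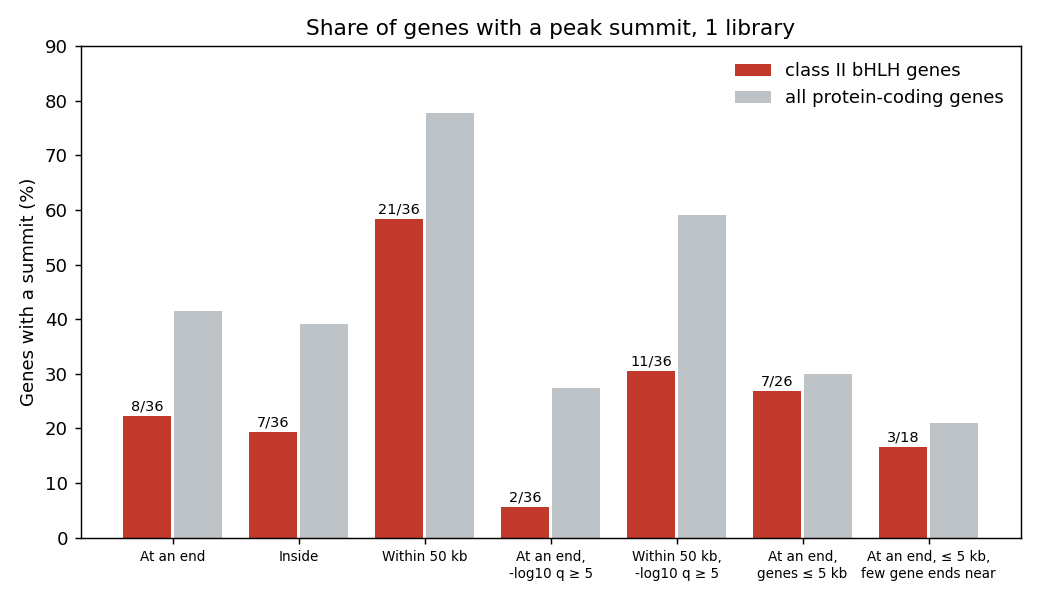
Percentage of genes with a summit, for class II bHLH genes (red, with counts) and all protein-coding genes (grey), by position, threshold and gene length. Red bars are lower in every pair, and the gap at ends is 26.9% against 30.0% among genes of up to 5 kb. "Few gene ends near" means at most 4 ends of other protein-coding genes within 100 kb.

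The peaks at these genes had the median depth of the whole list and lay below its upper quartile. The 12 peaks at an end of or inside class II genes rested on 7 to 13 fragments at the summit, with a median of 10. The authors' fold enrichment over local background ranged from 3.43 to 5.75 with a median of 5.20. All 26642 peaks had the same median of 10 fragments, with quartiles of 7 and 15, and a median fold of 5.13. A −log10 q of at least 5 was reached by 3 of the 12 (25%), by 41.2% of all peaks and by 57.3% of peaks at ends of protein-coding genes. Peaks at ends of all protein-coding genes had a median of 12 fragments, with quartiles of 9 and 19, and a median fold of 5.81, with quartiles of 4.67 and 7.75. The exact 95% Poisson interval of the deepest of the 12, at ATOH8, was 6.92 to 22.2 fragments, and that of the shallowest, at MESP2, was 2.81 to 14.4. These intervals overlap and cover counting error only, so the 12 peaks cannot be ranked by depth. Their local background was a median of 1.32 fragments, against 1.09 at ends of all protein-coding genes. At a stricter threshold, a −log10 q of at least 5, NEUROD6 and OLIG2 kept a summit at an end (2 of 36, background 27.4%), and ATOH8 kept its summit inside. With either position counted it was 3 of 36 (background 35.3%), and within 50 kb 11 of 36 (background 59.1%). At a −log10 q of at least 10, no class II gene had a summit at an end (0 of 36, background 14.2%) or at either position (0 of 36, background 17.9%). Within 50 kb it was 3 of 36 (background 37.3%).

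**Figure D2:**
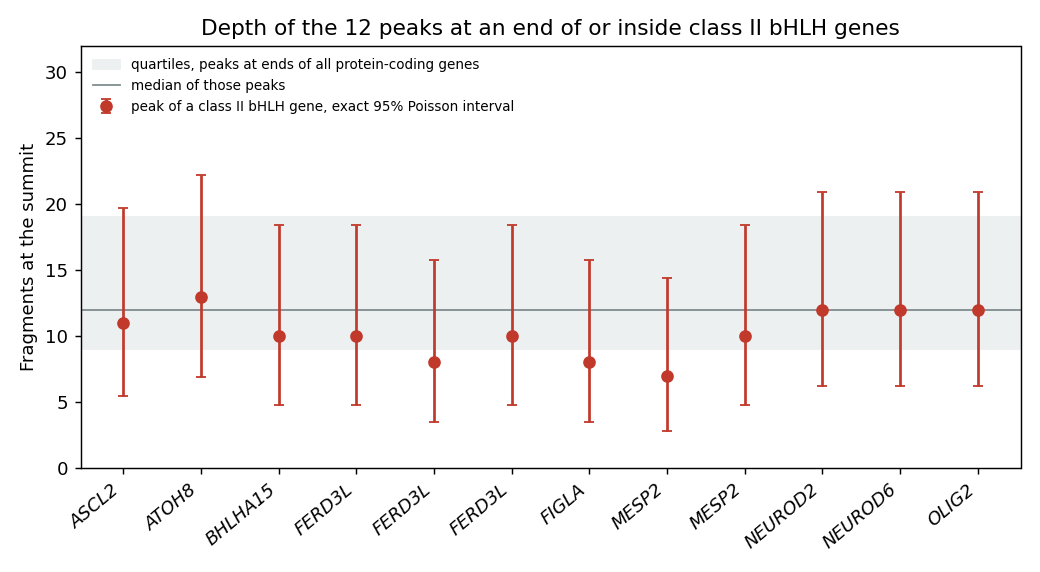
Fragments at the summit of the 12 peaks at an end of or inside class II bHLH genes, with exact 95% Poisson intervals, and the median and quartiles of peaks at ends of all protein-coding genes (line and grey band). All 12 points lie between 7 and 13 fragments and their intervals overlap.

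The RefSeq promoter table (build GRCh38.p14) gives the strand and start of 26 of the 36 genes, and 5 of them had a summit within 1 kb of the start (19.2%, background 44.5% of 15842 genes in that table). The others of the 36, ASCL2, OLIG1, OLIG2, BHLHE22, MYOD1, TCF15, MSC, SCX, MESP1 and PTF1A, are named only. The 250 bases before the start of the 5 genes are printed here, since they make up most of the window, 250 bases before to 50 after the start, that held 56.7% of all summits within 1 kb of a start and none of these genes' summits. TECPR1 is added because its peak, the one with the highest fold within 50 kb of any class II gene, reaches into its promoter. Capitals mark each E-box, CANNTG, which reads as an E-box on both strands.
FIGLA, chr2:70790644-70790893, minus strand: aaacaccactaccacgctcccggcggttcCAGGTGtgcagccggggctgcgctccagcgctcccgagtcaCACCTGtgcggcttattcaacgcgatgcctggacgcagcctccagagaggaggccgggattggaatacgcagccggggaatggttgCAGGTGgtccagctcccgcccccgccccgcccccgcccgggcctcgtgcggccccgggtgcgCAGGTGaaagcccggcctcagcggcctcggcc
MESP2, chr15:89776082-89776331, plus strand: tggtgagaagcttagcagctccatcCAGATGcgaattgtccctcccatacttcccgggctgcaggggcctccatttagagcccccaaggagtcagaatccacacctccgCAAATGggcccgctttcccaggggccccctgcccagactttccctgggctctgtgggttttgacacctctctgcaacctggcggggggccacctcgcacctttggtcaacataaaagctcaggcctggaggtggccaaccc
FERD3L, chr7:19145422-19145671, minus strand: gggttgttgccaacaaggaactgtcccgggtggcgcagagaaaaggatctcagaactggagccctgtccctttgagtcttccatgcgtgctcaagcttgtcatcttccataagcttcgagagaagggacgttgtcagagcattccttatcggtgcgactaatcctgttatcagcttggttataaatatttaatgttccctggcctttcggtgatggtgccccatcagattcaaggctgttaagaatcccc
NEUROD2, chr17:39607921-39608170, minus strand: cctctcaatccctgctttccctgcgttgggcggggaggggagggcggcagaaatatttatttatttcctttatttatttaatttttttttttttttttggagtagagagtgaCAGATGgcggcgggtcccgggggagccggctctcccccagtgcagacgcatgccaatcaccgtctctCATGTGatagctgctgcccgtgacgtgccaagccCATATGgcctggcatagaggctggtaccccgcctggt
BHLHA15, chr7:98211189-98211438, plus strand: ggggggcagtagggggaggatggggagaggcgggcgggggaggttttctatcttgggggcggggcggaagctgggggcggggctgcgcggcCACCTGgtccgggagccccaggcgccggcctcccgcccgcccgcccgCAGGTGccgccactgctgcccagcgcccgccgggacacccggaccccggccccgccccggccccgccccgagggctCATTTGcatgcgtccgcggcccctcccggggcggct
TECPR1, chr7:98252233-98252482, minus strand: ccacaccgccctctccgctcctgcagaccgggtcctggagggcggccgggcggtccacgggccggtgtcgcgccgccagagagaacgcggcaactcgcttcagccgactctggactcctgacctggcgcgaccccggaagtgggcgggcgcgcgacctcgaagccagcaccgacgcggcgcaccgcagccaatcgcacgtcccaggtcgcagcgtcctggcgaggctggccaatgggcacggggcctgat

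The E-boxes differed among these promoters. The 250 bases of FIGLA held 4, all of the kind CAGGTG on either strand. BHLHA15 held 3, of which 2 were of this kind. NEUROD2 held 3 of other kinds, among them CATATG, and MESP2 held 2 of other kinds, while FERD3L and TECPR1 held none in this window. In the full promoter window of 300 bases, 250 before the start and 50 from it on, 20 of 28 promoters of class II genes held an E-box (71.4%). This was 65.1% over all 22198 promoters of protein-coding genes. Among promoters without a summit within 1 kb of the start it was 16 of 23 (69.6%) in class II genes and 69.3% over all. Among those with one it was 4 of 5 (80%) and 58.7%. CAGGTG, on either strand, was found in 4 of 28 (14.3%, against 19.9% of all). The kind CAGCTG was found in 4 as well (14.3%, against 18.0%). CATATG was in 3 (10.7%), above the 2.02% of all promoters. CACGTG, the E-box of MYC and USF proteins, was in none, against 8.34%. CTTTG followed by A or T, the core bound by TCF/LEF proteins, was in 7 on either strand (25%, against 22.5%). These matches are a description of the letters in the window. They do not show a binding site.

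No summit lay in the promoter windows listed for class II genes, 0 of 28, against 23.6% of all promoters of protein-coding genes. Among the 26 genes with a known start, all 7 summits within 1 kb of a start lay after it. They lay 106 bp after the start of FIGLA, 121 and 655 bp after that of MESP2, and 145 and 808 bp after that of FERD3L. The FERD3L summit at 808 bp lay past the finish of its 640 bp record. In NEUROD2 and BHLHA15 the distances were 821 and 824 bp. ASCL2 and OLIG2 also had a summit at an end but have no start in the promoter table. Their summits, that of ASCL2 520 bp outside its record, could thus not be placed before or after a start. Over all protein-coding genes, 35.4% of 8620 such summits lay after the start and 23.6% lay at least 100 bp after it, with a median position of -63.5 bp, before the start. With 7 to 12 fragments, the range of the 7 summits here, 44.5% of 3810 lay after the start and 30.3% at least 100 bp after it. With records of up to 5 kb as well, which holds for 4 of the 5 genes but not for FIGLA (13334 bp), the shares were 54.0% and 40.9% of 235. The comparison was made after the values were seen, rests on 7 summits of 5 genes, and has no test.

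**Figure D3:**
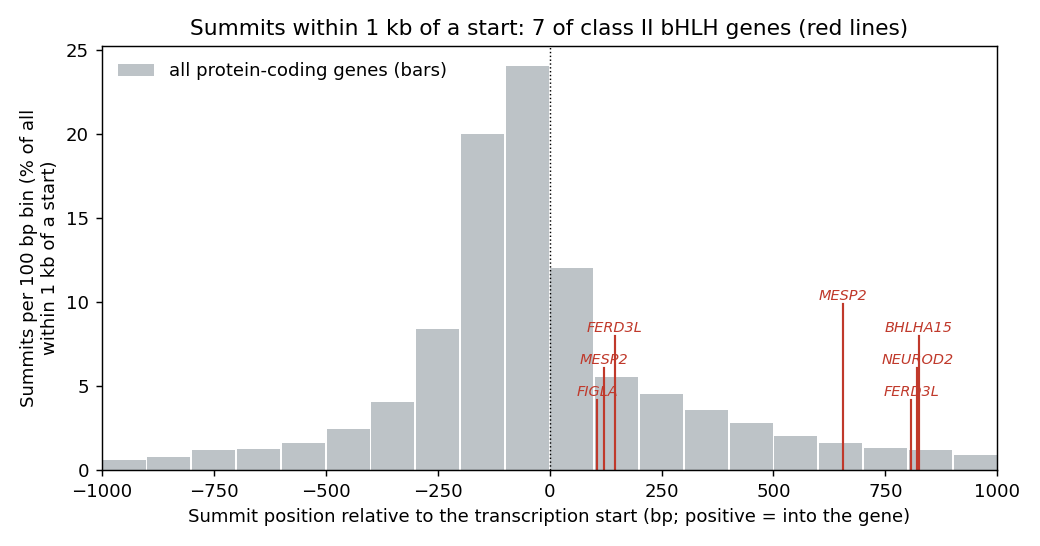
Position of summits relative to the transcription start in bp, positive in the direction of transcription. The FERD3L summit at 808 bp lies past the finish of its 640 bp record. Grey bars give the percentage of all summits within 1 kb of a start of a protein-coding gene in bins of 100 bp. Red lines (heights set for legibility) mark the 7 summits of class II genes with a known start, from 106 to 824 bp after it. The summits of ASCL2 and OLIG2 are not shown.

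Base composition also differed. The median GC content of the 28 promoters was 56.0%, from 41.0 to 79.3%, against 62.3% over all promoters of protein-coding genes. The median ratio of observed to expected CpG was 0.550 against 0.737. Promoters with a summit within 1 kb had a median GC of 63.0% in class II genes and 67.0% over all. Under 50% GC, none of 5 class II promoters had a summit within 1 kb of the start, against 7.32% of all. From 50 to 65% GC it was 3 of 16, against 38.4%, and over 65% it was 2 of 7, against 58.2%. The part of base composition in the low share was not tested.

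Among the 13 proneural and neuronal differentiation factors, 3 had a summit at an end (23.1%, background 41.5%). Within 50 kb it was 7 (53.8%, background 77.6%). ASCL2, an achaete-scute factor known as a Wnt target in intestinal stem cells, had a peak at chr11:2270977-2271300, 520 bp outside its high-coordinate end. It had a fold of 4.03 on 11 fragments (95% interval 5.49 to 19.7). A pair of further summits lay 10937 and 11539 bp beyond its other end, with folds of 4.84 and 4.18. All 3 had ASCL2 as the nearest protein-coding gene. NEUROD2, a factor of cortical neurons, had a peak at chr17:39607006-39607150 inside the record, with a fold of 4.88 on 12 fragments (6.20 to 21.0). Its other summits, 9913 and 29768 bp away, lay nearer to PPP1R1B and CDK12.

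NEUROD6, also a factor of cortical neurons, had 5 summits within 50 kb and no other protein-coding gene end within 100 kb. The peak at chr7:31336668-31336868 had a fold of 5.60 on 12 fragments (6.20 to 21.0). It lay 740 bp beyond the low-coordinate end and 4001 bp after the start, so it was at the finish of this minus-strand gene. A second peak lay 1277 bp from the same end with a fold of 4.62 on 10 fragments. The remaining 3, on the other side at 5003, 33226 and 45136 bp, had folds of 3.73, 5.19 and 4.70. ATOH8, an atonal relative and the longest of the 36 records, had its summit at chr2:85772409-85772587, 18548 bp inside the gene, with a fold of 5.56 on 13 fragments.

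NEUROD1, a factor of neurons and pancreatic beta cells, had a summit 3666 bp before its start with a fold of 5.84 on 11 fragments (5.49 to 19.7). Its other summit lay 400 bp from an end of CERKL and inside that gene. NHLH2, a factor of hypothalamic neurons, had a peak with a fold of 7.46 on 10 fragments, 48286 bp away and 14344 bp from CASQ2, and a peak 2377 bp past its low-coordinate end, with 6 fragments and a fold of 4.15. The fold of 7.46 rests on a background of 0.475 fragments, the lowest in the list and a floor shared by 2538 of all 26642 peaks. NEUROG1 had 1 summit, 32873 bp away and 1842 bp from CXCL14. NEUROD4, NEUROG2, NEUROG3, ATOH1, ATOH7 and NHLH1 had none within 50 kb. ATOH1, a factor of hair cells and secretory gut cells, was 4430289 bp from the nearest summit, the farthest of the 36.

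Of the 4 OLIG and related factors, OLIG2 alone had a summit at an end (25%, background 41.5%). OLIG2 specifies motor neurons and oligodendrocytes. Its peak at chr21:33026688-33026794 lay inside the record, 817 bp from its low-coordinate side. The fold was 5.75 on 12 fragments (6.20 to 21.0). This was the highest fold among peaks at class II genes. The same summit, 43389 bp from OLIG1, was the only one within 50 kb of that gene. OLIG3 had summits 3655 and 3962 bp from its ends, with folds of 3.90 on 7 fragments and 3.59 on 5, and no end of another protein-coding gene within 100 kb. BHLHE22 had none within 50 kb.

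The 4 myogenic factors had no summit at an end or inside (background 54.9%), and only MYOD1 had any within 50 kb (25%, background 77.6%). MYOD1, which can turn other cells into muscle, had a summit 23754 bp away with a fold of 7.11 on 14 fragments (7.65 to 23.5) and a −log10 q of 8.18. MYOD1 was its nearest protein-coding gene, and an end of the non-coding gene LINC02729 lay within 1 kb of it. A second summit with a fold of 4.11 lay 8018 bp away on the other side, nearer to KCNC1. MYF5, MYF6 and MYOG, which act with MYOD1 in muscle formation, had none within 50 kb. MYF5 and MYF6 are neighbours on chromosome 12, and both were over 200 kb from the nearest summit (217863 and 228060 bp).

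All 3 blood and endothelial factors had summits within 50 kb (background 77.6%) but none at an end or inside (background 54.9%). TAL1, a regulator of blood stem cells, had 1 summit, 17835 bp away, with a fold of 4.43 on 6 fragments (2.2 to 13.1), and it lay nearer to PDZK1IP1. TAL2 had 3, of which that nearest to the gene, 5998 bp away, had a fold of 4.84 on 10 fragments. Another lay 82 bp from an end of TMEM38B with a fold of 5.26. LYL1, a close relative of TAL1, had 5 summits, all on 1 side, in or at NACC1, STX10 and IER2. The deepest peak near any class II gene, 34 fragments (23.5 to 47.5) with a fold of 7.33, lay there, 47549 bp from LYL1. Its summit was 4 bp from an end of IER2, an immediate early gene, and within 1 kb of STX10.

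Of the 8 mesoderm and mesenchyme factors, MESP2 alone had a summit at an end (12.5%, background 41.5%). MESP2 sets segment borders in the early embryo. It had a peak at chr15:89776417-89776611 with a fold of 3.43 on 7 fragments, and a peak at chr15:89776832-89777019 with a fold of 4.62 on 10 fragments (4.80 to 18.4). The fold of 3.43 was the lowest within 50 kb of any class II gene, and its −log10 q of 1.46 was close to the limit of the list, 1.30. A further summit with a fold of 5.57 on 11 fragments lay 3465 bp beyond MESP2 and 2676 bp from ANPEP, and a summit with a fold of 4.61 on 9 fragments lay 33 bp from the other end of ANPEP. MESP1, an early factor of cardiac mesoderm, shared the 3 summits in and nearest to MESP2 and had no peak nearer than 25204 bp. Its 1 unshared summit lay at PEX11A and WDR93.

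The other mesoderm factors with summits had them mostly at other genes. SCX, a tendon factor, had peaks with folds of 6.82 on 29 fragments and 6.94 on 30, both at the ends of BOP1 and HSF1, 23056 and 23817 bp away. TCF15, a factor of somites, had a peak with a fold of 6.50 on 12 fragments, 192 bp from SRXN1. It had a weaker summit, with a fold of 4.07 on 5 fragments, 16456 bp away with TCF15 as the nearest protein-coding gene. TCF21, MSC, HAND1 and HAND2 had none within 50 kb.

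Of the 4 secretory and other factors, 3 had a summit at an end, where the background is 41.5% of all protein-coding genes. BHLHA15, also called MIST1, drives secretory cell maturation in glands such as the pancreas. Its peak at chr7:98212225-98212390 lay inside the record with a fold of 4.42 on 10 fragments (4.80 to 18.4). The peak with the highest fold within 50 kb of any class II gene, 7.84 on 16 fragments (9.15 to 26.0), lay 36759 bp from BHLHA15 and 16 bp from an end of TECPR1. A further summit with a fold of 5.81 lay inside LMTK2.

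FERD3L, a neural factor with a record of 640 bp, had 3 summits at its ends, more than any other of the 36. The peak at chr7:19144063-19144190 had a fold of 5.59 on 10 fragments. The peak at chr7:19144580-19144803 had 4.51 on 8, and the peak at chr7:19145120-19145326 had 5.52 on 10. They lay 619 and 169 bp outside the low-coordinate end and inside the record. FERD3L had 6 summits within 50 kb, also more than any other, and 2 of them lay at an end of TWIST1, a bHLH regulator of mesenchyme, with folds of 3.80 and 4.27. FIGLA, which switches on zona pellucida genes in oocytes, had 1 summit, at chr2:70790236-70790566, with a fold of 5.72 on 8 fragments (3.45 to 15.8). PTF1A, a factor of the exocrine pancreas, had none within 50 kb, and its nearest summit was 244625 bp away.

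Across the family, 55 distinct summits lay within 50 kb, and 4 of them counted for a pair of genes. At an end of or inside a class II gene lay 12, at an end of another protein-coding gene 11, deeper inside another protein-coding gene 9, and between such genes 23. For 26 of the 55, the nearest protein-coding record was a class II gene. This gave 15 of the 36 genes a summit of their own (41.7%, background 56.6%). Over all 26642 peaks, 8579 lay at an end of a protein-coding gene. Of the 55, 13 had a −log10 q of at least 5 (23.6%, against 41.2% of all peaks). All 4 with at least 10 lay at ends of other genes: TECPR1, the STX10 and IER2 pair, and 2 at the BOP1 and HSF1 pair. Over all peaks, 4375 reached 10, of which 2369 lay at an end of a protein-coding gene. At the limits of the windows, the summit of BHLHA15, 824 bp from the end, was the farthest counted at an end, and NHLH2 at 2377 bp was the nearest gene beyond it. TAL2 had the farthest summit counted within 50 kb, at 49742 bp, and NEUROG3 at 68058 bp was the nearest gene beyond it.

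**Figure D4:**
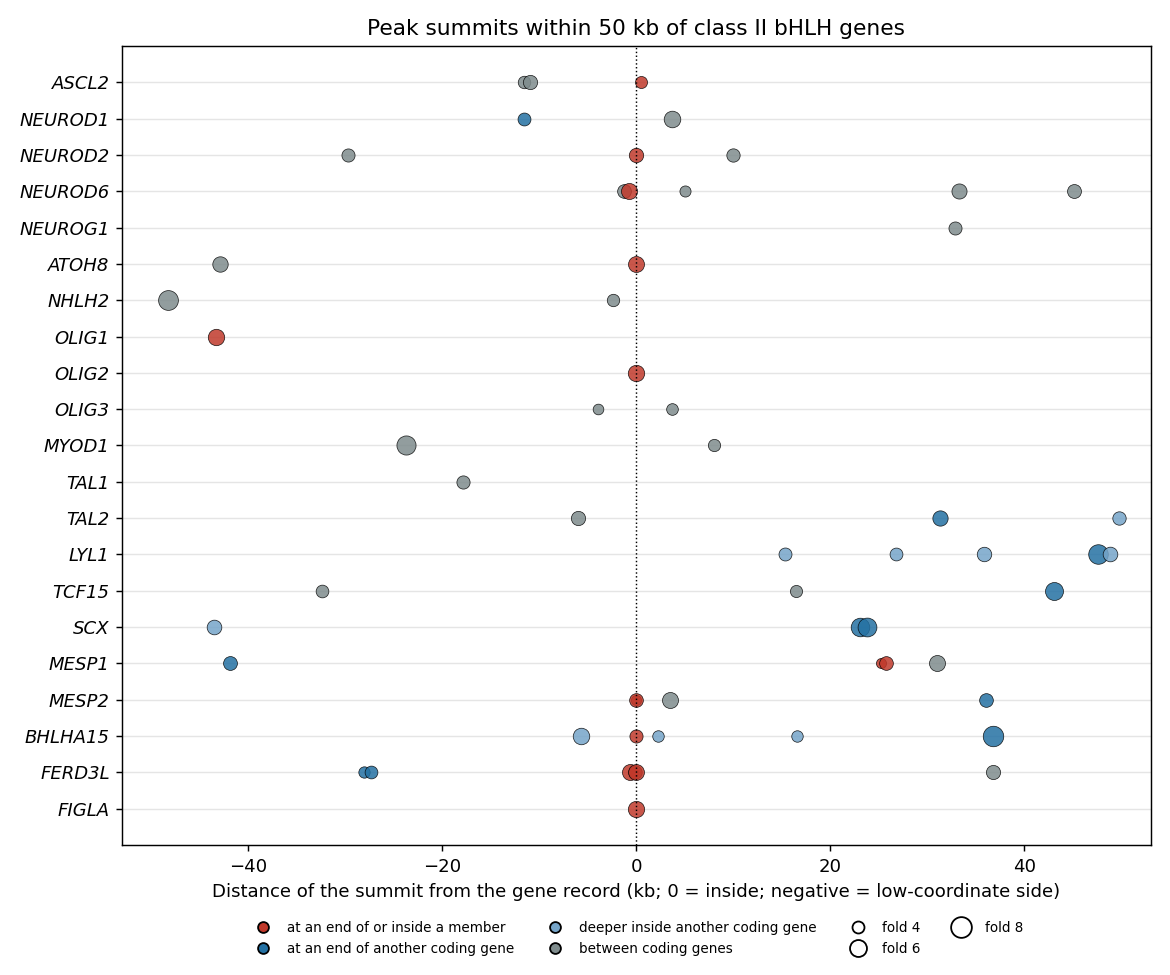
Summits within 50 kb of the 21 class II bHLH genes that had any, by distance from the record in kb, with 0 for summits inside. Colour gives the place of the summit and area grows with the authors' fold. The highest fold, 7.84 in the row of BHLHA15, lies at an end of another protein-coding gene, and the red points in the rows of OLIG1 and MESP1 are peaks of OLIG2 and MESP2.

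Other genes of the pathway, from lists chosen by function, gave these counts at gene ends. Of the E proteins, TCF3 had a peak with a fold of 4.93 on 18 fragments and TCF12 a fold of 4.43 on 6, while TCF4 had no summit within 50 kb. Of the ID inhibitors, ID1 had a fold of 7.99 on 20 fragments and ID3 a fold of 5.72 on 16, while ID2 and ID4 had none at an end and 1 each within 50 kb. Among 20 cofactors, such as the LMO and LDB proteins that bridge TAL1 complexes, 5 had a summit at an end (25%, background 41.5%). These were led by CBFA2T2, a corepressor of the ETO family, with a fold of 13.7 on 31 fragments, SSBP2 with 11.9 on 24, and the acetyltransferase EP300 with 11.4 on 26. None of LMO1, LMO2, LMO4, LDB1 and LDB2 had a peak at an end. LDB1 had 3 summits inside and LMO2 had 1. The cofactor genes are long, with a median record of 94.9 kb, and only their share at ends was below the background. A summit lay inside 11 of the 20 (background 39.0%) and at either position for 13 (background 54.9%). Within 50 kb it was 18 (90%, background 77.6%).

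At gene ends, the other bHLH classes had larger shares than class II, and stood above, near and below the 41.5% of all protein-coding genes. In the MYC, MAX, USF and MiT class it was 15 of 22 (68.2%), led by SREBF2, a regulator of cholesterol synthesis, with a fold of 13.0 on 36 fragments, TFE3 with 11.0 on 28 and MXD1 with 10.8 on 30. In the bHLH-PAS class, which includes the hypoxia and clock factors, it was 7 of 19 (36.8%), led by AHR (fold 11.6), NCOA3 (9.76) and ARNT (8.97). In the HES and HEY class, which includes repressors downstream of Notch, it was 6 of 13 (46.2%), led by HES2 (9.34), BHLHE40 (7.28) and HEY2 (6.73). HES and HEY genes are about as short as class II genes, with a median of 3.76 kb, and had a median of 6 neighbouring ends against 3.5. The class II genes had 8 of 36, and the difference between classes was not tested. With summits inside counted too, it was 15 of 19 for bHLH-PAS, 18 of 22 for MYC, MAX, USF and MiT, and 8 of 13 for HES and HEY. Class II genes had 9 of 36 by this count (background 54.9%). Within 50 kb it was 19, 18 and 11 in the same order, and 21 for class II (background 77.6%).

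**Figure D5:**
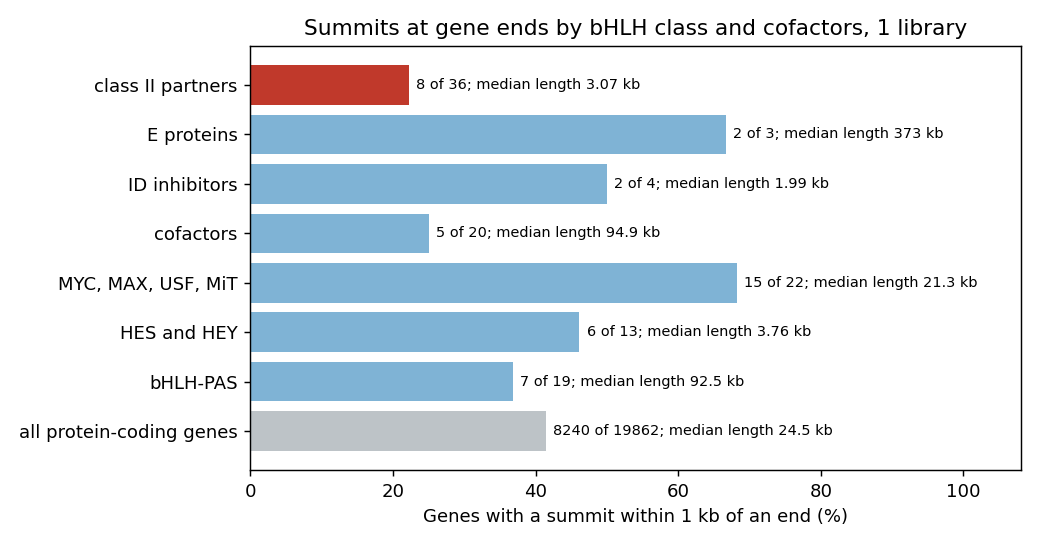
Percentage of genes with a summit within 1 kb of an end, by bHLH class and for cofactors and all protein-coding genes, with counts and median record length. Class II partners, at 8 of 36, have the lowest share shown, next to cofactors at 5 of 20. Summits deeper inside genes are not counted here.

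Markers of the labelled cell type and of tissues that use class II factors were counted the same way. Peaks mark DNA and not expression. Of 8 squamous markers, 6 had a summit at an end, among them KRT5 and KRT14, while TP63 and DSG3 had none there. The counts were 3 of 6 for neuron, 1 of 6 for skeletal muscle, 1 of 6 for blood and 0 of 5 for exocrine pancreas markers. The share over all protein-coding genes was 41.5%, so the neuron count was near it. Within 50 kb the counts were closer: 8 of 8 squamous, 4 of 6 neuron, 5 of 6 skeletal muscle, 4 of 6 blood and 4 of 5 exocrine pancreas markers. The background there was 77.6%.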

How the data were processed

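Per the submitters' processing notes, hg38 was the build and the tools were Bowtie2 2.3.5.1, SAMtools and MACS2 2.2.7.1. Neither settings nor the use of IgG as a control are given there. The deposited list holds a fold enrichment, a ratio over local background, with −log10 p and −log10 q values and a score of 10 times the −log10 q without decimals, all made by the authors. Fragments and background were solved from fold = (fragments + 1) / (background + 1) and the Poisson tail, with an error in −log10 p of at most 4.80e-05 over 26642 peaks. Total depth is unknown here. The lowest −log10 q in the list was 1.30.

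Genes came from RefSeq (GRCh38.p14), 58957 records on the main chromosomes. Records with scaffold coordinates were left out. Exons and UTRs were not used here. The genes and lists were chosen with earlier results of these data known. Described with values were genes with a summit inside or at an end, the 10 others with the highest fold within 50 kb, the 3 leading genes of each pathway list, and genes whose ends held such summits. NEUROG1 and OLIG3 and some neighbours and list members were named beyond this rule after their values were seen. No test was run, and intervals are exact 95% Poisson intervals. Alternatives were stricter thresholds, other windows, any base of the peak, starts only and the nearest gene. The code was tested on simulated data. Software was pandas 2.3.3 and SciPy 1.17.1 with NumPy 2.4.6 under Python 3.11.15, and Matplotlib 3.10.9 for figures.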

Additional observations from a re-analysis of the deposited data

How the results depend on the processing

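Of 33 alternatives, 22 left the count within 1.5 times its value, and in all 29 that have a share of all protein-coding genes the class II genes stayed below it. The other 11 gave lower counts. With a −log10 q of at least 5, the count of genes with a summit at an end was 2 in place of 8, inside 2 in place of 7, at either place 3 in place of 9, within 50 kb 11 in place of 21, and 5 in place of 11 summits lay at an end of another gene. At 10 these counts were 0 at an end (background 14.2%), 0 inside (8.22%), 0 at either place (17.9%) and 3 within 50 kb (37.3%). With a window of 500 bp, 3 genes had a summit at an end, FERD3L, FIGLA and MESP2 (8.33%, background 36.6%). With starts only it was 5 of the 26 genes with a known start (19.2%, background 44.5%). By construction, each of these settings takes fewer peaks, fewer genes or a narrower window. Without the 10% of peaks with the highest local background the counts were the same. None of the alternatives matched genes by record length or neighbouring ends. Among records of up to 5 kb the share at ends was 26.9%, against 30.0% of all such records. By neighbouring ends among these it was 16.7% against 21.1% (at most 4), 40% against 23.3% (5 to 9) and 66.7% against 36.6% (more), the last 2 on few genes. Depth limits what can be said: 7 to 13 fragments at a summit, around the median of 10 over all peaks, do not rank genes, and regions without a listed peak may hold fragments below the threshold. No paired analysis was possible because each antibody has 1 library, and IgG data were not used here.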

Other observations

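The class II genes were unevenly placed over chromosomes with different numbers of peaks. Chromosome 4 had 493 peaks, and 19.1% of its 763 protein-coding genes had a summit at an end and 41.7% within 50 kb. NEUROG2, ATOH1 and HAND2 lie there, and none of the 3 had a summit within 50 kb. On chromosome 7, with 2136 peaks and 45.4% of protein-coding genes with a summit at an end, all 3 class II genes had a summit at an end: NEUROD6, BHLHA15 and FERD3L. Chromosomes 10 and 12 hold 3 class II genes each, without a summit within 50 kb, while 72.2% and 82.4% of the protein-coding genes on them had one. The part of chromosome copy number in these counts was not tested.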
